A study of Mus musculus with 9 samples.

Results

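The 10 receptor genes Mc4r, Rxfp1, Trhr, Gpr21, Sstr1, Sstr2, Sstr3, Npy1r, Npy2r and Oprl1 were followed among 20143 genes measured in cultured mouse neurons depleted of Tdp-43, the RNA-binding protein encoded by Tardbp. They were chosen by name as receptors of peptide hormones and neuropeptides, and the list was drawn up with earlier results of these data known, in which the changes of Trhr, Gpr21, Mc4r and Rxfp1 stood among the largest of their kind. All 10 were bright enough to be measured, with 98 of their 102 probe sets above the threshold for dim ones. Gpr21 has no established peptide ligand and is an orphan receptor, so the name of the group holds for the other 9 only.

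The cells were primary cortical neurons of C57BL/6 mouse embryos at embryonic day 15, treated overnight with AraC, a drug that kills dividing cells. A lentivirus delivered a short hairpin RNA on day 5 of culture, in an infection that lasted 4 h, and RNA was taken after 6 further days, on day 11. The groups carried a hairpin against mouse Tdp-43 (shTdp-43-1), another hairpin against it (shTdp-43-2) or a control hairpin (shCont), with 3 arrays in each of the 3 groups, and no group was left uninfected among the samples used here. The design text of the series instead names motor neurons and counts 11 days from transfection; the sample labels, given here, were followed. Because the labels do not say whether arrays of a group came from separate cultures, the p-values measure the spread between these samples, which may be technical.

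For each array, 100 ng of total RNA was hybridised to an exon array (Affymetrix Mouse Exon 1.0 ST), on which a gene is covered by several probe sets spread over its exons. Each gene's value averages the log2 intensities of those of its probe sets whose mean over the 9 arrays reached the median of the whole table, 6.07. A difference of 1 on this scale is a doubling. Gene values had medians between 8.45 and 8.58 on the 9 arrays, and arrays of one group correlated across genes with r from 0.979 to 0.991. Tardbp was 7.84, 8.23 and 8.55 with shTdp-43-1 and 8.22, 8.58 and 7.90 with shTdp-43-2, against 9.77, 9.94 and 10.06 in shCont. It was thus below every control array with each hairpin (log2 change -1.72 ± 0.201 with shTdp-43-1, limma adjusted p = 0.00231; -1.69 ± 0.201 with shTdp-43-2, limma adjusted p = 0.000773; SE, n = 3 per group). Pan-neuronal markers were high in every culture: the mean of 5 measured markers (Tubb3, Map2, Snap25, Syt1 and Stmn2) lay between 11.95 and 12.07 with shTdp-43-1, between 11.95 and 12.10 with shTdp-43-2 and between 11.98 and 12.08 in shCont. Markers of astrocytes were also well above the dim threshold (list means from 10.11 to 10.43 over all arrays), so the cultures were mixed. In such bulk samples, fewer cells of a type and less RNA per cell cannot be told apart.

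Receptors of this kind are G protein-coupled receptors in the cell membrane. Somatostatin, neuropeptide Y and nociceptin receptors act mainly through inhibitory Gi/o proteins, which lower cyclic AMP, open inwardly rectifying potassium channels and reduce transmitter release. The melanocortin-4 receptor (Mc4r) and the relaxin receptor (Rxfp1) act mainly through Gs and raise cyclic AMP, and the thyrotropin-releasing hormone receptor (Trhr) acts through Gq and phospholipase C. In the cortex, somatostatin and neuropeptide Y are made largely by inhibitory interneurons.

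Upstream sequences in RefSeq (GRCm38.p6) were found for 5 of the 10 genes. Those of Npy1r and Npy2r are shown because these receptors share the ligand neuropeptide Y and differed between the hairpins in opposite directions. Each is the 250 bases before the gene's start, 5′ to 3′ on the gene's strand, at chr8:66697172-66697421 (plus strand) for Npy1r and at chr3:82548086-82548335 (minus strand) for Npy2r, with motif matches in capitals.
Npy1r: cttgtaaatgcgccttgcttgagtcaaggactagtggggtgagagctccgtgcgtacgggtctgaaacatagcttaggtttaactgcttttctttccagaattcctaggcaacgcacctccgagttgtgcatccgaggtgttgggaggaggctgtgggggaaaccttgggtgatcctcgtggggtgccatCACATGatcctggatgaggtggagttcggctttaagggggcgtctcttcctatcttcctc
Npy2r: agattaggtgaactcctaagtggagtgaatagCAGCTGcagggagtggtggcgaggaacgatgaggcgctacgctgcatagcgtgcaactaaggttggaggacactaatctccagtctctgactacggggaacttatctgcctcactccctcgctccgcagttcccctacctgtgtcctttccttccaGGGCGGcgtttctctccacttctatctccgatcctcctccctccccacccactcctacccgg
The motifs searched on both strands were the cyclic AMP response element core TGACG, the TATA box TATAAA, the GC box GGGCGG and the E-box CANNTG. Npy1r held 1 match, an E-box, and Npy2r held 1 E-box and 1 GC box, and no matches overlapped. Of the 32851 upstream windows of this length in the RefSeq table, 66.22% held an E-box, 32.74% a GC box, 17.77% the TGACG core and 12.37% a TATA box. A match is a description of the letters and not evidence of a bound factor.

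Across the 10 receptors, 6 were lower and 1 was higher with shTdp-43-1 than in shCont at a limma adjusted p under 0.05, where 3.36% of all genes were lower and 3.27% higher. With shTdp-43-2, 4 were lower and 2 were higher than in shCont, where 9.92% of all genes were lower and 5.58% higher. Between the hairpins, 3 were higher and 2 were lower with shTdp-43-2 than with shTdp-43-1, where 2.68% of all genes were higher and 4.77% lower. The balance over all genes depends on the scaling: with arrays centred on their medians, 1826 genes were higher and 1666 lower with shTdp-43-2 (1123 and 1999 as deposited), 933 higher and 771 lower with shTdp-43-1 (658 and 676), and 939 higher and 926 lower between the hairpins (540 and 961). The counts of receptors in each direction were the same under that scaling. Trhr, Gpr21, Sstr1 and Oprl1 were lower with both hairpins (1.96% of all genes), Mc4r and Rxfp1 were lower with shTdp-43-1 but higher when the hairpin was shTdp-43-2 (0.0348% of all genes, 7 of 20143), and Sstr2 and Sstr3 passed in no comparison. Arrays of the groups compared did not overlap for 9, 6 and 5 receptors in these comparisons, beside 32.1%, 34.4% and 25.1% of all genes. Nothing is read from these shares, because the list was proposed with the results known. The median change of the 10 receptors was -0.394 with shTdp-43-1, -0.0454 with shTdp-43-2 and 0.0672 between the hairpins (shTdp-43-2 minus shTdp-43-1), beside medians over all genes of 0.0221, 0.00397 and -0.0351. Both hairpins were compared with the same 3 control arrays, so the sets of changes against shCont are not independent of each other. The 7 receptors called with shTdp-43-1 were 3 without shTdp-43-1 replicate 2 or 3 or shCont replicate 1 or 2 and 4 without shCont replicate 3, and the 4 lower with both hairpins were 2 without any 1 of these arrays or shTdp-43-2 replicate 1. The 5 called between the hairpins were 3 without shTdp-43-1 replicate 1 or 2 or shTdp-43-2 replicate 2, and leaving out shTdp-43-2 replicate 1 left 2.

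**Figure D1:**
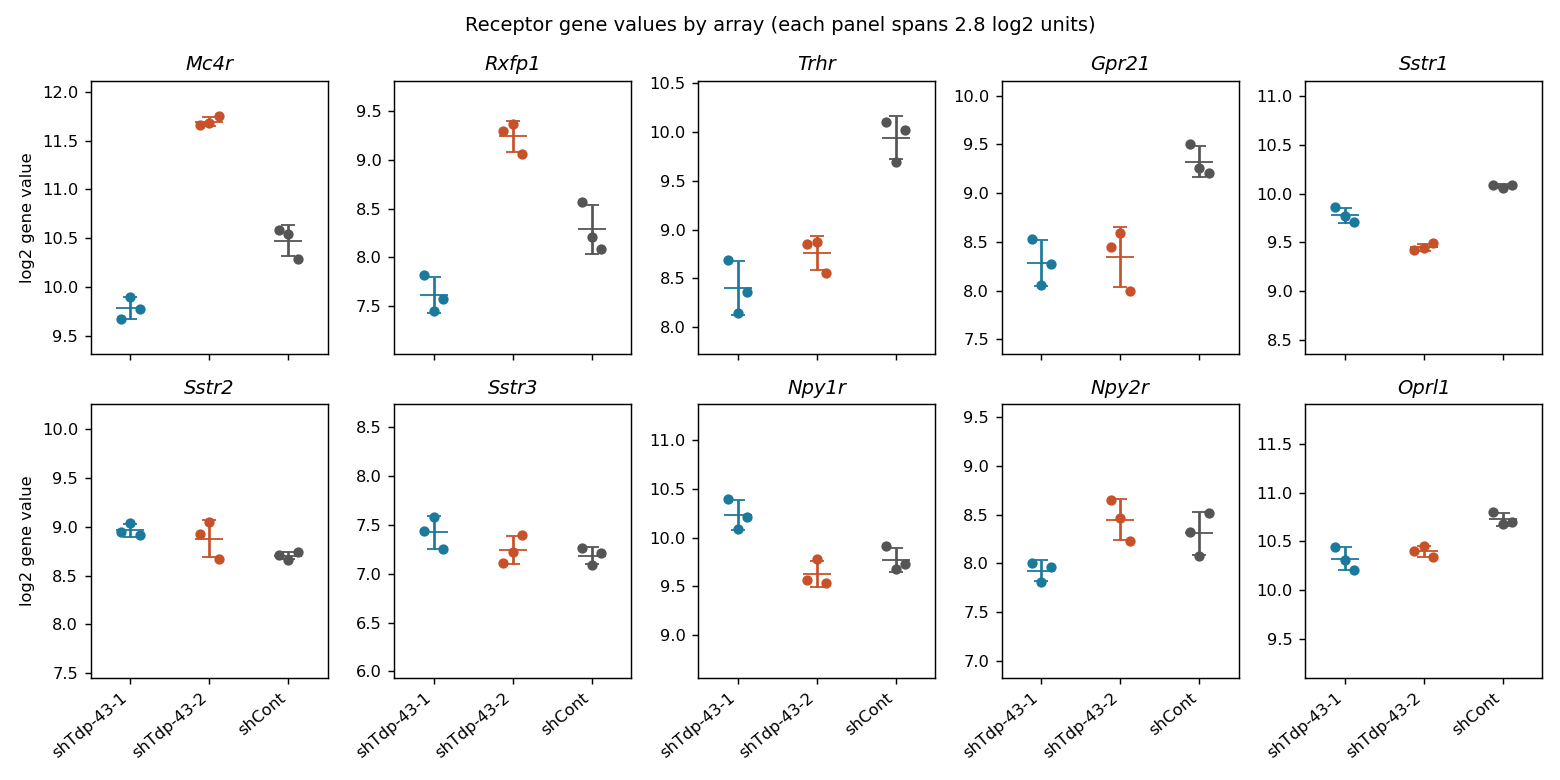
Gene value (mean log2 intensity of the probe sets used) of each of the 10 receptors on each array, in 1 panel per gene, with shTdp-43-1, shTdp-43-2 and shCont from left to right. Each point is 1 array, the flat bar marks the group mean and the capped vertical bar shows 1 SD above and below it. Every panel spans the same number of log2 units. Mc4r and Rxfp1 show shTdp-43-1 below and shTdp-43-2 above the control arrays, while Trhr and Gpr21 show both hairpins below them.

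Trhr, Gpr21, Mc4r and Rxfp1 had been among the genes with the largest changes of their kind in the earlier results, ranked 7 and 11 among genes lower with both hairpins (Trhr and Gpr21) and 1 and 4 among genes higher with shTdp-43-2 than with shTdp-43-1 (Mc4r and Rxfp1). These ranks are among the 16770 genes with at least 3 probe sets used, and the falls with both hairpins were ordered by the smaller fall. The values of Trhr, Gpr21, Mc4r and Rxfp1 are therefore given as a description, with errors and without p-values. The calls of the other 6 receptors are given with limma p-values adjusted over all 20143 genes, and they too are not independent of the choice of the list.

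Both Gs-coupled receptors, Mc4r and Rxfp1, were lower than in shCont with shTdp-43-1, whereas shTdp-43-2 arrays were higher. Mc4r, which responds to the melanocortins cut from Pomc and is known for the control of food intake by the hypothalamus, was 9.67, 9.90 and 9.78 with shTdp-43-1 and 11.66, 11.68 and 11.75 with shTdp-43-2, against 10.59, 10.55 and 10.29 in shCont. The 3 groups did not overlap, with the control arrays in the middle. Mc4r was at 61.8% of the shCont level with shTdp-43-1 (log2 change -0.69 ± 0.0989 SE, 95% interval -0.91 to -0.47) and 2.33-fold higher than in shCont with shTdp-43-2 (1.22 ± 0.0989 SE, interval 1.00 to 1.44). It was 3.77-fold higher with shTdp-43-2 than with shTdp-43-1 (log2 difference 1.91 ± 0.0989 SE).

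The change of Mc4r was alike in the probe sets used. Of its 4 probe sets 3 were used, and their changes lay between -0.78 and -0.57 with shTdp-43-1 and between 1.09 and 1.41 with shTdp-43-2. The probe set left out, with a mean of 5.82 just under the dim threshold, differed by -0.01 (shTdp-43-1) and 0.34 (shTdp-43-2).

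Rxfp1, the leucine-rich repeat receptor for relaxin, followed the same order. It was 7.81, 7.45 and 7.57 with shTdp-43-1 and 9.30, 9.37 and 9.06 with shTdp-43-2, against 8.57, 8.21 and 8.08 in shCont. No array of one group reached the range of another group. Rxfp1 was at 62.5% of the shCont level with shTdp-43-1 (log2 change -0.68 ± 0.146 SE, interval -1.01 to -0.35) and 1.93-fold higher than in shCont with shTdp-43-2 (0.95 ± 0.146 SE, interval 0.62 to 1.28). The difference between the hairpins was 3.09-fold (log2 1.63 ± 0.146 SE).

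All 25 probe sets of Rxfp1 were lower with shTdp-43-1 and all 25 were higher with shTdp-43-2. Their changes lay between -1.29 and -0.11 with shTdp-43-1 and between 0.52 and 1.43 with shTdp-43-2. The dimmest, with a mean of 6.19, was the receptor probe set just inside the dim threshold. The fall of Rxfp1 with shTdp-43-1 no longer passed when shTdp-43-1 replicate 2 or 3 or shCont replicate 1 or 2 was left out, with changes of -0.60, -0.66, -0.54 and -0.71 in that order.

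Of the 7 genes lower with shTdp-43-1 but higher when the hairpin was shTdp-43-2, Mc4r and Rxfp1 were the only members of the list, and none of the 67 other peptide receptor genes tested was among them. Mc3r and Mc5r, the melanocortin receptors nearest to Mc4r in ligand, differed by -0.06 and 0.11 with shTdp-43-1 and by -0.07 and 0.63 with shTdp-43-2. Only Mc5r with shTdp-43-2 passed (limma adjusted p = 0.0116). Mc3r was low in shCont (7.24, 6.71 and 6.90), so a fall of Mc3r could be missed.

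The Gq-coupled receptor Trhr had the largest fall of the 10 with each hairpin. Trhr was 8.69, 8.14 and 8.36 with shTdp-43-1 and 8.85, 8.87 and 8.56 with shTdp-43-2, against 10.11, 9.70 and 10.03 in shCont. Every array with a hairpin against Tdp-43 lay below every control array. Trhr stood at 34.3% of the shCont level with shTdp-43-1 (log2 change -1.54 ± 0.160 SE, interval -1.90 to -1.19) and 44.1% with shTdp-43-2 (-1.18 ± 0.160 SE, interval -1.54 to -0.82). Between the hairpins the log2 difference was 0.36, with an interval from 0.00 to 0.72, and the hairpin groups overlapped.

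All 7 probe sets of Trhr were lower with each hairpin, by between -1.94 and -1.13 with shTdp-43-1 and between -1.52 and -0.86 with shTdp-43-2. Trhr2, which encodes the other mouse receptor for the same hormone, differed by 0.00 and 0.16 with shTdp-43-1 and shTdp-43-2 (limma adjusted p = 0.996 and 0.441). Its shCont values were low (6.81, 6.75 and 6.89, where the lowest array median was 8.45), so a fall could be missed.

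Gpr21, an orphan receptor, was 8.53, 8.06 and 8.27 with shTdp-43-1 and 8.45, 8.59 and 7.997 with shTdp-43-2, against 9.50, 9.26 and 9.21 in shCont. All 6 arrays with a hairpin against Tdp-43 lay below the control arrays, and the hairpin groups overlapped. Gpr21 was at 48.8% of the shCont level with shTdp-43-1 (log2 change -1.03 ± 0.169 SE, interval -1.41 to -0.66) and at 50.8% with shTdp-43-2 (-0.98 ± 0.169 SE, interval -1.36 to -0.60). The difference between the hairpins was 0.06, with an interval from -0.32 to 0.44.

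All 12 probe sets of Gpr21 were lower with each hairpin, by between -1.25 and -0.64 with shTdp-43-1 and between -1.34 and -0.46 with shTdp-43-2. In RefSeq Gpr21 lies within the span of Rabgap1, which encodes a GTPase-activating protein for Rab GTPases, so signal from transcripts of that gene cannot be told apart from Gpr21 where they cover its probe sets. Rabgap1 was 11.07, 11.06 and 11.12 with shTdp-43-1 and 10.89, 11.12 and 10.94 with shTdp-43-2, against 10.52, 10.62 and 10.83 in shCont. It thus lay above the control arrays with each hairpin, opposite to Gpr21 (log2 change 0.43 ± 0.0987 SE, limma adjusted p = 0.0346 with shTdp-43-1; 0.32 ± 0.0987 SE, limma adjusted p = 0.0541 with shTdp-43-2). The neighbouring gene Strbp, which encodes an RNA-binding protein, differed by -0.25 (limma adjusted p = 0.155) and fell by 0.52 with shTdp-43-2 (limma adjusted p = 0.0065).

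Among the Gi/o-coupled receptors, Sstr1 fell with both hairpins and further with shTdp-43-2. Sstr1 was 9.86, 9.77 and 9.71 with shTdp-43-1 and 9.42, 9.44 and 9.49 with shTdp-43-2, against 10.09, 10.06 and 10.09 in shCont. The 3 groups did not overlap and the control arrays were the highest. The level was 81.0% of the shCont level with shTdp-43-1 (change of -0.30 ± 0.0720 SE on the log2 scale, limma adjusted p = 0.0374), and 64.6% of it with shTdp-43-2 (-0.63 ± 0.0720 SE, limma adjusted p = 0.000652). The difference between the hairpins was -0.33 ± 0.0720 SE (limma adjusted p = 0.0261).

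The fall of Sstr1 was not even over its probe sets. Of its 9 probe sets 7 were lower with both hairpins, down to -0.72 with shTdp-43-1 and -1.26 with shTdp-43-2. The other two, both well above the dim threshold, were 0.24 and 0.12 higher with shTdp-43-1 and 0.12 and 0.06 higher with shTdp-43-2. The call with shTdp-43-1 ended when any of shTdp-43-1 replicates 2 and 3, shTdp-43-2 replicates 1 and 2 or the 3 control arrays was left out, or when the median over probe sets was used (limma adjusted p from 0.0223 to 0.126 over 18 alternatives). The difference between the hairpins no longer passed without shTdp-43-1 replicate 1 or 2 or shTdp-43-2 replicate 1 or 2 (limma adjusted p from 0.0138 to 0.103 over 18 alternatives), while the fall with shTdp-43-2 passed in all 18. Fitting the compared groups alone ended both the call with shTdp-43-1 (0.0634) and that between the hairpins (0.0842), each a limma adjusted p.

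Sstr2 and Sstr3 passed in no comparison. Sstr2, which like Sstr1 binds somatostatin and cortistatin, was 8.94, 9.04 and 8.92 with shTdp-43-1 and 8.92, 9.05 and 8.67 with shTdp-43-2, against 8.71, 8.66 and 8.74 in shCont. The shTdp-43-1 arrays lay above the control arrays and the shTdp-43-2 arrays overlapped them. The differences were 0.26 with shTdp-43-1 (interval 0.04 to 0.49, limma adjusted p = 0.150) and 0.18 with shTdp-43-2 (interval -0.05 to 0.40, limma adjusted p = 0.296). Sstr2 lies within the span of Slc39a11, a zinc transporter gene, in RefSeq, and signal from that gene cannot be told apart where its transcripts cover the probe sets of Sstr2.

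Sstr3, a somatostatin receptor known for its place in neuronal primary cilia, was 7.43, 7.58 and 7.25 with shTdp-43-1 and 7.11, 7.22 and 7.39 with shTdp-43-2, against 7.26, 7.09 and 7.21 in shCont. All groups overlapped. The differences were 0.24 (interval -0.01 to 0.48, limma adjusted p = 0.224) and 0.05 (interval -0.19 to 0.30, limma adjusted p = 0.791) with shTdp-43-1 and shTdp-43-2. Of its 12 probe sets 2 were too dim to be used. Sstr3 was low in shCont, where the lowest array median was 8.45, so a fall could be missed.

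Of the other two somatostatin receptor genes, Sstr4 rose with both hairpins. It was 9.82, 9.66 and 9.53 with shTdp-43-1 and 9.37, 9.60 and 9.58 with shTdp-43-2, against 8.89, 8.94 and 8.78 in shCont. All 6 values with a hairpin against Tdp-43 were above the control arrays (log2 change 0.80 ± 0.101 SE, limma adjusted p = 0.00307; 0.64 ± 0.101 SE, limma adjusted p = 0.00293), the opposite direction to Sstr1. Sstr5 differed by 0.09 and 0.00 and passed with neither, and it was low in shCont (6.92, 6.80 and 6.63).

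The ligand shared by these receptors also differed with 1 hairpin. Sst, the somatostatin precursor, was 10.60, 10.44 and 10.16 with shTdp-43-1 and 9.25, 9.15 and 9.37 with shTdp-43-2, against 10.78, 10.52 and 10.37 in shCont. Its shTdp-43-2 arrays lay below all others (log2 change -1.30 ± 0.137 SE against shCont, limma adjusted p = 0.000434, and -1.14 ± 0.137 SE against shTdp-43-1, limma adjusted p = 0.00215), while the shTdp-43-1 arrays overlapped the controls (-0.16, limma adjusted p = 0.496). Cort, which encodes cortistatin, differed by 0.40 and 0.20 and passed with neither. Of 12 markers of inhibitory neurons, Sst among them, 4 were lower than in shCont with shTdp-43-2 (Sst, Vip, Gad1 and Dlx1). There 1 was higher (Gad2), beside 9.92% of all genes lower and 5.58% higher. With shTdp-43-1, where Sstr1 was also lower, only Gad2 passed and it was higher. The mean of the 12 lay between 9.76 and 9.98 with shTdp-43-1, between 9.67 and 9.71 with shTdp-43-2 and between 9.82 and 9.95 in shCont, and the lowest value of any of the 12 on an array was 6.98. Their part in the values of Sstr1 was not tested.

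**Figure D2:**
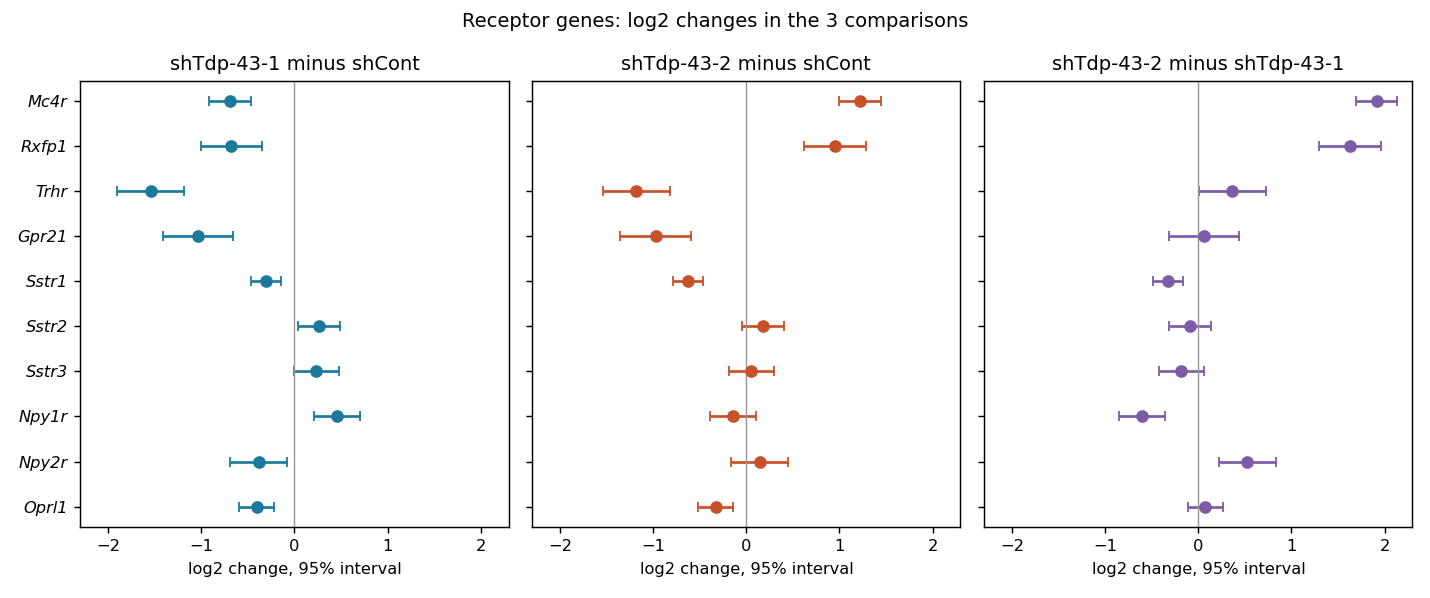
Log2 change of each receptor gene with its 95% interval in the 3 comparisons, shTdp-43-1 minus shCont, shTdp-43-2 minus shCont and shTdp-43-2 minus shTdp-43-1, in 1 panel each; the vertical line is no change. Mc4r lies at -0.69, 1.22 and 1.91 and Trhr at -1.54, -1.18 and 0.36 in these panels.

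The receptors for neuropeptide Y differed between the hairpins in opposite directions. Npy1r, the Y1 receptor, found mainly on the receiving side of synapses, was 10.40, 10.09 and 10.21 with shTdp-43-1 and 9.57, 9.78 and 9.53 with shTdp-43-2, against 9.91, 9.68 and 9.72 in shCont. The shTdp-43-1 arrays were above all others, and the shTdp-43-2 arrays overlapped the controls. Npy1r rose 1.38-fold with shTdp-43-1 (0.46 ± 0.110 SE on the log2 scale, limma adjusted p = 0.0378), and differed by -0.14 ± 0.110 SE with shTdp-43-2 (interval -0.39 to 0.10, limma adjusted p = 0.438). It was lower with shTdp-43-2 than with shTdp-43-1 by -0.61 ± 0.110 SE (limma adjusted p = 0.0117), and all 7 probe sets were lower in that comparison.

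Npy2r, the Y2 receptor, which often sits on nerve endings and limits release of transmitter, was 8.01, 7.81 and 7.96 with shTdp-43-1 and 8.65, 8.47 and 8.23 with shTdp-43-2, against 8.33, 8.08 and 8.52 in shCont. The shTdp-43-1 arrays lay below those of both other groups, which overlapped. Npy2r was higher with shTdp-43-2 than with shTdp-43-1 by 0.52 ± 0.137 SE (limma adjusted p = 0.0485), and all 5 probe sets were higher. Against shCont it passed with neither hairpin (-0.38 ± 0.137 SE, limma adjusted p = 0.128 with shTdp-43-1; 0.14 ± 0.137 SE, limma adjusted p = 0.552 with shTdp-43-2).

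The values of the neuropeptide Y receptors rest on few arrays. The rise of Npy1r with shTdp-43-1 ended without any 1 of the 3 shTdp-43-1 arrays, shTdp-43-2 replicate 1 or any 1 of the 3 control arrays, and when the compared groups were fitted alone (0.0529; limma adjusted p from 0.0114 to 0.129 over 18 alternatives), and its difference between the hairpins ended without shTdp-43-2 replicate 1 (0.0505). The difference of Npy2r between the hairpins passed in 7 of 18 alternatives; it ended without any 1 of the 3 shTdp-43-1 arrays, shTdp-43-2 replicate 1 or 2 or shCont replicate 1, with either looser dim filter, with the median over probe sets or with the compared groups fitted alone (limma adjusted p from 0.0225 to 0.168 over the alternatives). The ligand gene Npy differed by 0.08 and -0.12 with shTdp-43-1 and shTdp-43-2 and passed with neither. Npy5r, the neighbour of Npy1r and a further receptor for the peptide, differed by 0.12 (limma adjusted p = 0.582) and -0.13 (limma adjusted p = 0.558), and Npy4r by 0.06 and 0.03. Npy4r was low in shCont (6.34, 6.59 and 6.33).

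Oprl1, the receptor for nociceptin and a relative of the opioid receptors, fell with both hairpins to a similar level. It was 10.44, 10.31 and 10.21 with shTdp-43-1 and 10.40, 10.45 and 10.34 with shTdp-43-2, against 10.80, 10.68 and 10.70 in shCont. All 6 arrays with a hairpin against Tdp-43 lay below the control arrays. The level was 75.5% of the shCont level with shTdp-43-1 (change of -0.41 ± 0.0843 SE on the log2 scale, limma adjusted p = 0.0238), and 79.6% of it with shTdp-43-2 (-0.33 ± 0.0843 SE, limma adjusted p = 0.0270). The difference between the hairpins was 0.08, with an interval from -0.11 to 0.26.

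Of the 15 probe sets of Oprl1 used, 14 were lower with each hairpin, down to -0.92 with shTdp-43-1 and -0.99 with shTdp-43-2 in the same probe set, and 1 more was too dim. The call with shTdp-43-1 ended without shTdp-43-1 replicate 2 or 3 or any 1 control array (limma adjusted p from 0.00781 to 0.0995 over 18 alternatives), and that with shTdp-43-2 ended without shTdp-43-2 replicate 1 or 3 or any 1 control array (from 0.0111 to 0.104). Both calls also ended when the median over probe sets was used (limma adjusted p = 0.0663 with shTdp-43-1 and 0.0687 with shTdp-43-2). Pnoc, which encodes the precursor of nociceptin, differed by 0.07 and -0.38 and passed with neither. Rgs19, the neighbour of Oprl1 and a regulator that shortens Gi signalling, was higher by 0.50 with shTdp-43-2 (limma adjusted p = 0.00255); the difference of 0.29 with shTdp-43-1 did not pass (limma adjusted p = 0.0504).

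**Figure D3:**
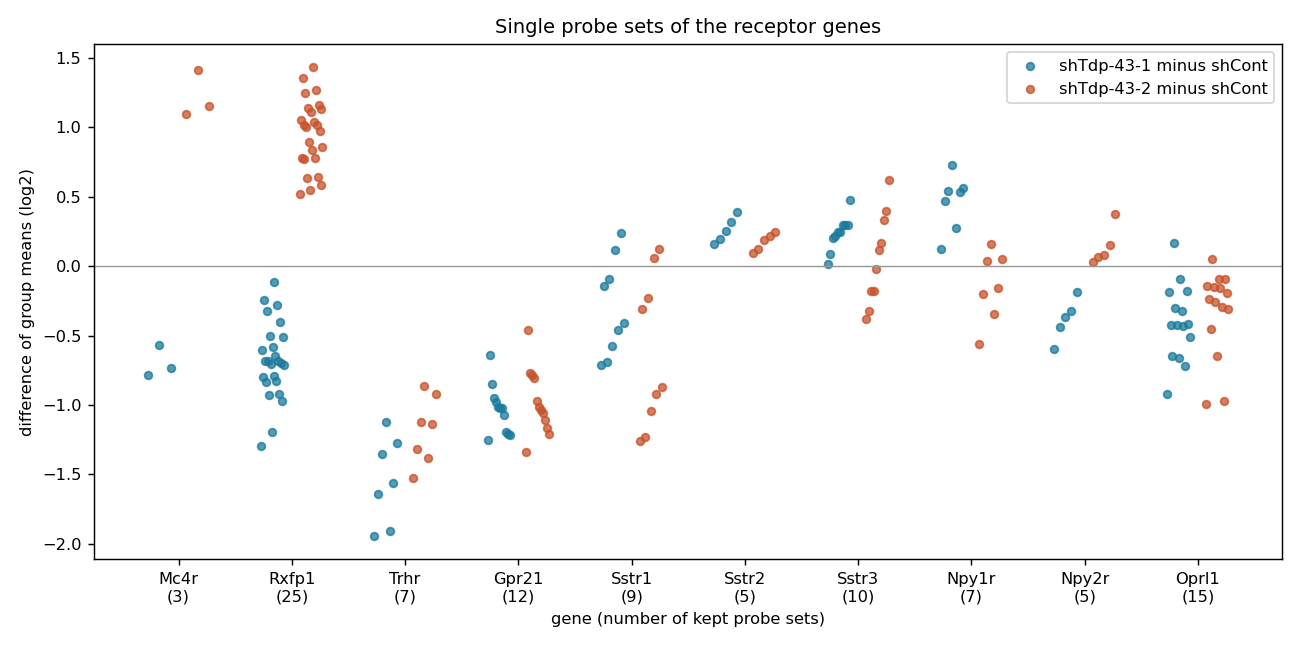
Difference of group means (log2) for every probe set used of the 10 receptors, with shTdp-43-1 minus shCont to the left of shTdp-43-2 minus shCont for each gene; each point is 1 probe set, probe sets of a gene share their RNA, and the number in brackets counts them. All 25 points of Rxfp1 lie below 0 with shTdp-43-1 and above 0 with shTdp-43-2, while Sstr1 has 2 of its 9 points above 0 with each hairpin.

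Most genes listed as other peptide receptors that passed with both hairpins were higher, unlike the 4 receptors lower with both. Of 70 listed, 67 were bright enough to be tested. Of these, 6 were higher and 1 was lower with shTdp-43-1 (3.27% and 3.36% of all genes). With shTdp-43-2, 9 were higher and 3 lower (5.58% and 9.92% of all genes). Medians over the 67 were 0.0923 and 0.0609. Those higher with both were Gpr52, Sstr4, Mchr1, Agtr1a, Oprm1 and Nmbr (6 of 67, beside 1.87% of all genes), and Tacr3 was lower with both (1.96% of all genes). Gpr52 is an orphan receptor, so the name of the list does not hold for it. Between the hairpins 3 were higher and 3 were lower with shTdp-43-2, beside 2.68% and 4.77% of all genes. Nothing is read from the contrast with the 4 receptors lower with both, because all lists were chosen with earlier results known.

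Gpr52, the orphan receptor closest to Gpr21, was 9.87, 9.29 and 9.65 with shTdp-43-1 and 10.06, 9.96 and 9.76 with shTdp-43-2, against 8.85, 8.76 and 8.87 in shCont. It lay above every control array with each hairpin, where Gpr21 lay below them (log2 change 0.78 ± 0.141 SE, limma adjusted p = 0.0142; 1.10 ± 0.141 SE, limma adjusted p = 0.00107). Tacr3, the neurokinin B receptor, was 8.27, 8.31 and 8.33 with shTdp-43-1 and 7.90, 7.75 and 7.58 with shTdp-43-2, against 8.89, 8.81 and 9.44 in shCont. It was below every control array with each hairpin (-0.74 ± 0.156 SE, limma adjusted p = 0.025; -1.30 ± 0.156 SE, limma adjusted p = 0.000818). Oprm1, the mu opioid receptor and a relative of Oprl1, rose by 0.45 and 0.67, and Mchr1, the receptor for melanin-concentrating hormone, rose by 0.66 and 0.78 with shTdp-43-1 and shTdp-43-2. Avpr1a, a vasopressin receptor, rose by 0.85 with shTdp-43-2 (limma adjusted p = 0.00552); its difference of 0.25 with shTdp-43-1 did not pass.

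**Figure D4:**
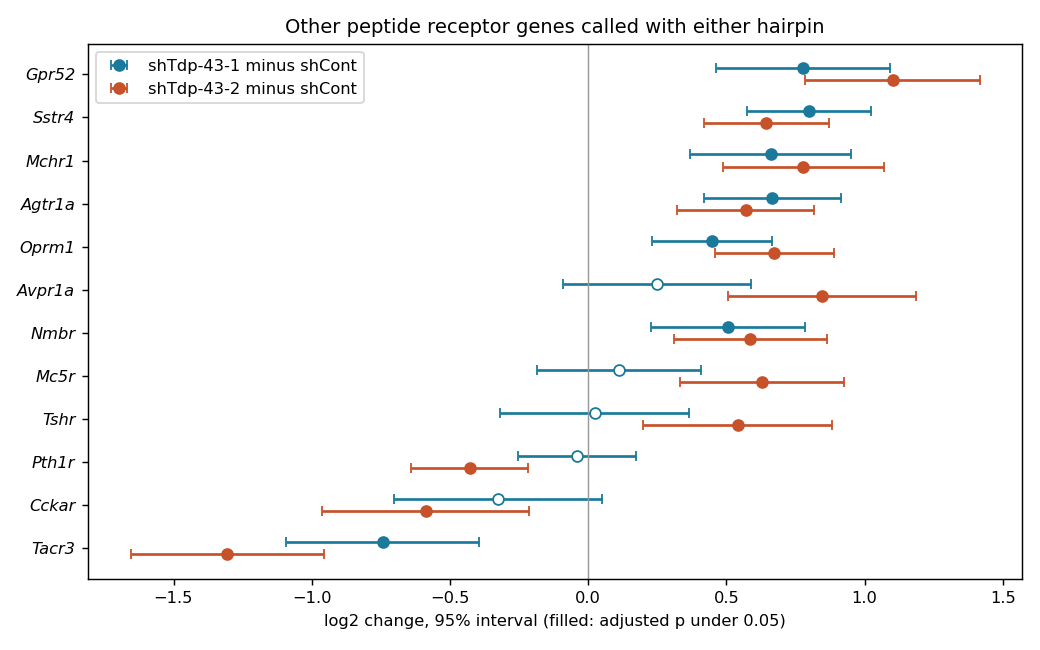
Log2 change of the genes listed as other peptide receptors and called with either hairpin, shTdp-43-1 minus shCont and shTdp-43-2 minus shCont, with 95% intervals. Gpr52, an orphan receptor, is listed among them. Gpr52, Sstr4, Mchr1, Agtr1a, Oprm1 and Nmbr lie above 0 and Tacr3 below 0 in both.

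Of the 11 genes for ligands of the 10 receptors, Sst with shTdp-43-2 was the only one to pass. It was lower there, as were 9.92% of all genes. With shTdp-43-1 and shTdp-43-2 in that order, Pomc, the source of melanocortins, differed by 0.22 and 0.19, and Agrp, the antagonist of Mc4r, by 0.10 and 0.15. Trh, the ligand of Trhr, differed by 0.27 and 0.14. The relaxin genes Rln1 and Rln3 differed by 0.39 and 0.17 and by 0.46 and 0.05. The Y receptor ligands Pyy and Ppy differed by 0.23 and 0.07 and by 0.15 and 0.00. Pomc, Agrp, Trh, Rln1 and Rln3 were low in shCont, with 7.53 (Pomc) as their highest value, so a fall could be missed.

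Of 9 genes of the Gi/o arm, Gnaz, a Gi-family alpha subunit, was higher by 0.74 and 0.81, and Kcnj6, a subunit of the potassium channel opened by these receptors, by 0.61 and 0.57; both passed with both hairpins. Of 19 genes of the Gs and cyclic AMP arm, the adenylyl cyclase gene Adcy3 was higher with shTdp-43-1 (0.63), while Adcy9 was higher (0.36) and Adcy7 lower (-0.55) with shTdp-43-2. Of 13 genes tested of the Gq arm, none passed with shTdp-43-1. With shTdp-43-2, Gna11, a Gq-family alpha subunit, and Prkce, a protein kinase C, were higher by 0.43 and 0.47. The calcium release channel Itpr1, the phospholipase Plcb3 and the alpha subunit Gnaq were lower there (-0.63, -0.42 and -0.28). Beside these counts, 3.27% of all genes were higher and 3.36% lower with shTdp-43-1, and 5.58% and 9.92% with shTdp-43-2.

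Of 14 genes for proteins that desensitise or sort such receptors, none passed with shTdp-43-1. With shTdp-43-2 the beta-arrestin gene Arrb1 was higher by 0.24, and Gprasp2 and Bhlhb9, of the family of receptor-associated sorting proteins, were lower (-0.47 and -0.39). There 5.58% of all genes were higher and 9.92% lower. Gprasp2 was also lower with shTdp-43-2 than with shTdp-43-1 (-0.48 ± 0.0882 SE, limma adjusted p = 0.0123).

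Markers of other cells changed beside these receptors. Of 8 markers of fibroblasts and pericytes, 3 were lower with shTdp-43-1 (Lum, Pdgfrb and Rgs5) and 4 with shTdp-43-2 (Dcn, Fn1, Rgs5 and Pdgfrb). Of all genes, 3.36% and 9.92% were lower with these hairpins. The mean of the 8 markers lay between 8.44 and 8.54 with shTdp-43-1, between 8.44 and 8.51 with shTdp-43-2 and between 8.78 and 8.86 in shCont, and the lowest value of any of the 8 on an array was 7.17. The collagen genes Col1a1, Col1a2 and Col3a1 went the other way, with higher group means than shCont with each hairpin, and passed with neither. Col1a1 was 8.35, 8.57 and 8.35 with shTdp-43-1 and 8.31, 8.42 and 8.55 with shTdp-43-2, against 8.30, 8.32 and 8.24 in shCont. Lum, a matrix proteoglycan gene, had the same order of hairpins as Mc4r, with a change of -1.26 with shTdp-43-1 (limma adjusted p = 0.0044) and 0.24 with shTdp-43-2 (limma adjusted p = 0.407). Unlike those of Mc4r, the shTdp-43-2 arrays of Lum overlapped the control arrays. Lum was also not typical of its list. Between the hairpins it was the only one of the 8 to pass as higher with shTdp-43-2. Dcn (-0.86) and Rgs5 (-0.43) passed in the opposite direction there. Of 8 astrocyte markers, 1 and 2 were lower with shTdp-43-1 and shTdp-43-2 (Aqp4 with both, Slc1a2 with shTdp-43-2). Among 7 progenitor markers Nes was higher (0.60) and Eomes lower (-0.41) with shTdp-43-2. Among 7 excitatory neuron markers tested, Neurod6 was lower with both (-0.42 and -0.78) and Camk2a higher with shTdp-43-1 (0.55). The other markers of these lists passed with neither hairpin, and 3.27% and 5.58% of all genes were higher with these hairpins. Excitatory list means lay between 10.45 and 10.71 with shTdp-43-1, 10.40 and 10.55 with shTdp-43-2 and 10.52 and 10.66 in shCont. None of the measured microglial, endothelial or oligodendrocyte lineage markers passed with either hairpin. In shCont the means of the microglial and endothelial lists were low (7.10 to 7.19 and 6.77 to 6.89), so a fall of these could be missed. The part of these cells in the receptor values was not tested.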

How the data were processed

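The authors deposited log2 values for each probe set, computed for all exons by RMA (Affymetrix Expression Console) per the labels; the submitters' processing notes name the build mm9. Versions of that software were not given in the sources used. RMA brings all arrays to one distribution, so a change shared by most probes is largely removed. Of 1256831 probe sets, 318760 name 1 gene, 6684 name several and 931387 none. Probe sets at or above the table median (6.07) that name 1 gene were averaged per gene (at least 1 per gene; 253568 probe sets, 20143 genes). Symbols were updated through RefSeq (GRCm38.p6, names and neighbours only).

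The 3 groups were fitted in one model with limma 3.58.1 in R 4.3.3 (lmFit, eBayes; 6 residual degrees of freedom), with Benjamini-Hochberg adjustment over all genes and calls at an adjusted p under 0.05. Single probe sets were fitted likewise (628416 probe sets), and for the receptors they are used as a description only. The smallest two-sided exact permutation p of 3 arrays against 3 is 0.1, so no value was tested that way. Depth does not apply to arrays; their number limits the precision.

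The receptors and all gene lists were chosen with earlier results of these data known. Named genes are the receptors, Tardbp, neighbours, ligands, and up to 6 genes per other list called with either hairpin, by the larger change. Mc3r, Mc5r, Trhr2, Sstr5, Npy4r, Agtr1a and Nmbr were named after their values were seen. Alternatives changed the dim filter, gene summary, minimum of probe sets, scaling, prior, replicate block and the arrays used.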

Additional observations from a re-analysis of the deposited data

Results flagged for a closer look

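Because each hairpin was compared with the same control arrays, a difference between their effects is the difference between shTdp-43-2 and shTdp-43-1 itself. This difference passed the limma test (adjusted p under 0.05 over 20143 genes) for 18 of the named genes. Of all genes, 2.68% were higher and 4.77% lower in this comparison. The 18 are a description only, because most were named for changes on these same arrays. Values are given here as log2 of shTdp-43-2 minus shTdp-43-1. Mc4r (1.91) and Rxfp1 (1.63) were the receptors with the largest values. Both were listed for this difference, so the test supports nothing for them. Among the other receptors of the list, Npy2r (0.52) was higher with shTdp-43-2, and Npy1r (-0.61) and Sstr1 (-0.33) were lower. Of further receptors and signalling genes, Avpr1a (0.60) was higher and Adcy7 (-0.61) and Gprasp2 (-0.48) were lower. Among markers of inhibitory neurons, Sst (-1.14), Vip (-0.73) and Gad1 (-0.61) were lower. Among markers of excitatory neurons, Camk2a (-0.38) and Neurod6 (-0.36) were lower. Of the markers of other cells, Lum (1.49) and Nes (0.79) were higher, and Dcn (-0.86), Slc1a2 (-0.48) and Rgs5 (-0.43) were lower.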

How the results depend on the processing

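Of 18 receptor changes that passed, followed over 18 alternatives each, 273 of 324 alternative values kept their call and 51 lost it, and none changed sign. These counts include the 4 receptors listed for their changes, for which they support nothing. Of 12 that did not pass, none came to pass in 216 alternative values and 5 changed sign. These were Sstr3 with shTdp-43-2, at -0.097 with the median over probe sets and, leaving out 1 array, between -0.0228 (without shTdp-43-2 replicate 3) and 0.120; and, between the hairpins, Gpr21, between -0.0645 and 0.233 (negative without shTdp-43-1 replicate 2 or shTdp-43-2 replicate 2), and Sstr2, between -0.171 and 0.0171 (positive without shTdp-43-2 replicate 3). With the median over the probe sets of a gene, 817 genes (1334 with the mean) passed with shTdp-43-1 and 903 (1501) between the hairpins, and 769 between the hairpins when these groups were fitted alone, where 3 receptors passed. With shTdp-43-1 the number of single probe sets called, 530, was 0 when the threshold for dim probe sets was the 25th percentile (limma; 103825 at an unadjusted p under 0.05) and 798 after quantile normalization. That threshold gave 3219 with shTdp-43-2 (9677) and 138 between the hairpins (1528).

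The replicate numbers were not taken to pair the arrays, because 6 and not all of 9 correlations of same-numbered deviations were over 0.1 (from -0.287 to 0.512; all those of replicates 1 and 3 were). With the number as a replicate block, limma called 0 probe sets with shTdp-43-1 (86953 at an unadjusted p under 0.05) and 86 between the hairpins; Sstr1 with shTdp-43-1 (limma adjusted p = 0.0513) and Npy2r between the hairpins (0.0528) no longer passed, and the block ended no other receptor's call. Genes called with the block were more: 1519 with shTdp-43-1 (1334 without it), 3357 with shTdp-43-2 (3122) and 1548 between the hairpins (1501). Leaving out 1 array gave 408 to 1504 genes with shTdp-43-1, 1830 to 3141 with shTdp-43-2 and 596 to 1261 between the hairpins. Receptors called were 3 to 7, 5 to 6 and 2 to 5, and probe sets 0 to 398, 1461 to 8787 and 4 to 589, in the same order. Receptors lower with both hairpins numbered 2 to 4 over the alternatives. The cause of these shifts was not tested.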
